A study of Culex quinquefasciatus with 7 samples.

Results

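Whole adult females of Culex quinquefasciatus, the southern house mosquito, were compared between day 3 and day 2 of adult life, counted from eclosion, when the adult leaves the pupal case. Day 3 was represented by the libraries at 48, 60 and 72 h and day 2 by those at 24 and 36 h, which are 5 of the 7 libraries of the series; the libraries at 2 and 12 h lie outside the comparison and are given beside it. Libraries were chosen by the hour in their labels and not by any measured value. Each library was made from the messenger RNA of 200 pooled females kept in 12 h of light and 12 h of dark, and the labels set the pools apart by age alone. Strain, diet and mating were not stated in the labels. Each hour had 1 library, so the hours of a day stood in for replicates, and the spread within a group holds both noise and any change inside that day.

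The first days after eclosion are the previtellogenic period, in which a female mosquito matures before she can turn a blood meal into yolk. In Aedes aegypti, juvenile hormone from the corpora allata rises after eclosion, the fat body gains the capacity to make yolk proteins, and the primary follicles of the ovary grow to a resting stage. The deposited table lists genes by identifiers that begin with CPIJ and pairs none of them with a name, and a search of the 18458 genes of a RefSeq table matched 0 of the 20305. Genes are therefore described by their values and time courses; no role, position or sequence is given, lists of pathway genes or of cell type markers were not built, and the whole-body label was not checked against marker genes.

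Expression values are FPKM, read-pair fragments counted on a gene, divided by the length of its model and by the number mapped in the library. FPKM gives a transcript's share of the library, so in whole bodies fewer cells of a type and less RNA per cell cannot be told apart. Of the 20305 genes, 11814 had a mean of at least 1 FPKM over the 5 libraries and were tested; 2229 were listed at 0 in all 5. The absolute depth is unknown. From the steps between low values, the depth relative to the 24 h library was between 0.736 at 60 h and 1.17 at 72 h, with 0.785 at 36 h and 0.817 at 48 h. The sum of FPKM was 470874, 479137 and 496974 at 48, 60 and 72 h, and 465605 and 430187 at 24 and 36 h.

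In each day-3 library more genes reached 10 FPKM than in either day-2 library. At least 10 FPKM was reached by 5352, 5089 and 5567 genes at 48, 60 and 72 h, against 4634 and 4844 genes at 24 and 36 h, and the days did not overlap. The means were 5336 ± 239 genes on day 3 (SD, n = 3) and 4739 ± 148 on day 2 (SD, n = 2), a difference of 597 (exact two-sided permutation p = 0.20, Benjamini-Hochberg adjusted 0.30 over 3 measures). With 3 libraries against 2 the smallest p this test can give is 0.20, so it cannot pass 0.05. After each library had been divided by its median ratio over genes that reached 10 FPKM in all 5 (rescaling), the difference was 263.5 genes (exact permutation p = 0.20). The 10 most abundant genes held 7.85%, 8.52% and 9.26% of all FPKM on day 3 and 9.17% and 7.63% on day 2, and here the days overlapped (difference 0.145 percentage points, exact permutation p = 0.80, adjusted 0.80). The sum of FPKM differed by 34432 (exact permutation p = 0.20, adjusted 0.30), a direction that turned after rescaling (-3628, exact permutation p = 1.0).

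The 24 h library lay farthest from those of day 3; the 36 h library lay closer to those at 48 and 60 h than to that at 72 h. Across the 11814 genes tested, the median absolute difference of log2(FPKM + 1) was 0.24 between 36 and 24 h, 0.23 between 48 and 36 h, 0.22 between 60 and 36 h and 0.33 between 72 and 36 h. The 24 h library differed from those at 48, 60 and 72 h by 0.34, 0.37 and 0.38. Inside day 3 the differences were 0.18 between 60 and 48 h, 0.20 between 72 and 48 h and 0.27 between 72 and 60 h. As deposited, the 36 h library was thus nearer to 48 and 60 h than 72 h was to 60 h. After rescaling, the difference was 0.18 between 48 and 36 h, 0.21 between 60 and 36 h, 0.25 between 72 and 36 h, 0.20 between 72 and 60 h and 0.24 between 36 and 24 h.

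**Figure D1:**
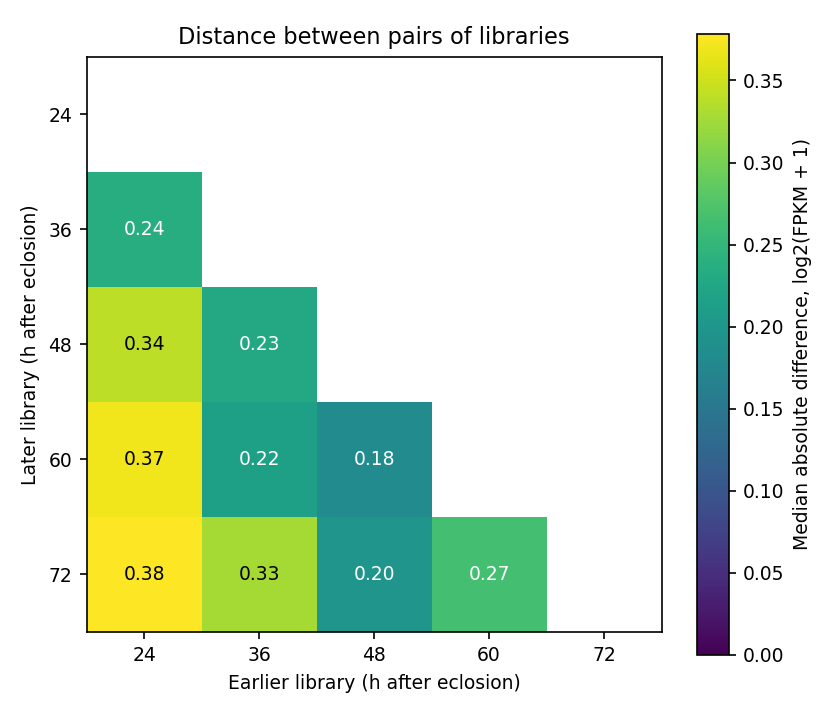
Median absolute difference of log2(FPKM + 1) over 11814 genes for each pair of the 5 libraries, the later library on the vertical axis and the earlier one on the horizontal axis, both in hours after eclosion. The column of the 24 h library holds the largest distances, 0.34 to 0.38 against day 3, while the 36 h library differs by 0.22 to 0.23 from those at 48 and 60 h and by 0.33 from that at 72 h.

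Gene by gene, day-3 females differed from day-2 females in a small called set, which with all 5 libraries as deposited held more increases than decreases. By limma with Benjamini-Hochberg adjustment at 0.05, 177 of 11814 genes were called: 119 rose (1.01% of those tested) and 58 fell (0.491%). The called increases had a median log2 difference of 1.07 (interquartile range 0.95 to 1.21, median standard error 0.21), and the called decreases one of -1.37 (interquartile range -1.59 to -1.16, median standard error 0.25), against 0.17 over all genes tested. All 177 had days that did not overlap, which the test itself favours. Of all genes tested, 36.1% were higher and 7.71% lower without overlap. Of the 119 increases, 72 were at least 2-fold, 64 were in genes averaging 10 FPKM or more and 11 in genes averaging 100 FPKM or more; of the 58 decreases these numbers were 56, 40 and 6.

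The number called rested on the scaling and on single libraries. After rescaling limma called 0 genes (2476 at an unadjusted p under 0.05, of which 1566 were higher and 910 lower), although all 177 kept their direction, with median differences of 0.97 and -1.48. The count was 0 without the 72 h library (2026 unadjusted), 2 without 60 h (0 higher and 2 lower), 29 without 24 h (10 higher and 19 lower), 397 without 48 h (233 and 164) and 1625 without 36 h (1157 and 468), so decreases outnumbered increases without 24 or 60 h; a day left with 1 library is assumed to vary like the other.

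**Figure D2:**
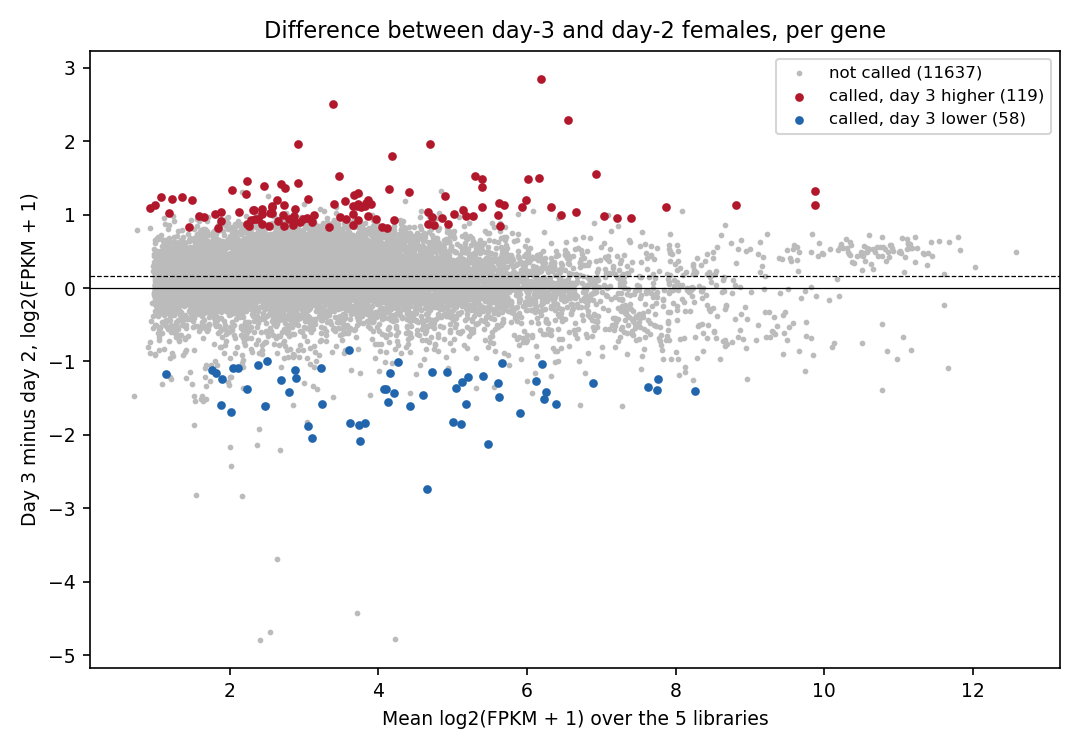
Day 3 minus day 2 on the log2(FPKM + 1) scale (vertical axis) against the mean of log2(FPKM + 1) over the 5 libraries (horizontal axis), 1 point for each of 11814 genes; the dashed line is the median of 0.17. The 119 called increases lie between 0.82 and 2.85 and the 58 called decreases between -2.73 and -0.84, while the lowest points, down to -4.79, were not called.

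Most differences between the days were small. Fold differences between days or hours were taken on the log2(FPKM + 1) scale unless another is stated. The mean of day 3 was at least 2-fold higher in 93 genes (0.787%) and at least 2-fold lower in 138 (1.17%); 3 and 15 of these were at least 4-fold apart. After rescaling, 57 were higher (0.482%) and 173 lower (1.46%), so that the higher genes made up 24.8% of the total against 40.3% as deposited, and 58.2% with a pseudocount of 0.1. The total of 231 became 113 when the 24 h library was left out and 688 when that at 36 h was. Every day-3 value lay above both day-2 values in 4261 genes (36.1%) and below both in 911 (7.71%); after rescaling these were 3157 (26.7%) and 1749 (14.8%). Without the 36 h library, which leaves 24 h alone on day 2, 6222 and 2179 genes did not overlap. The median ratio itself was 1.04, 0.962 and 1.11 at 48, 60 and 72 h and 0.967 and 0.938 at 24 and 36 h, and rescaling moved the median difference over all genes from 0.17 to 0.067.

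The 2 called genes with the largest increases had identifiers 2 apart. CPIJ010699 stood at 123, 268 and 124 FPKM at 48, 60 and 72 h, against 11.3 and 39.4 FPKM at 24 and 36 h. All 3 day-3 libraries lay above both day-2 ones, and the highest value was at 60 h. Its difference was 2.85 ± 0.44 on the log2(FPKM + 1) scale (standard error, limma adjusted p = 0.028). Outside the comparison the 2 h library gave 4.13 FPKM and the 12 h library 59.7 FPKM, above both day-2 values. CPIJ010701 stood at 21.7, 32.8 and 11.2 FPKM at 48, 60 and 72 h, against 1.64 and 4.15 FPKM at 24 and 36 h. It too was highest at 60 h, with a difference of 2.51 ± 0.38 (limma adjusted p = 0.028), but it had been lower at 2 and 12 h, at 0.237 and 0.378 FPKM. No sequence was used here, so reads shared between genes with close identifiers were not assessed.

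The 2 called genes with the largest decreases had different histories. CPIJ003588 stood at 13.9, 10.3 and 8.86 FPKM at 48, 60 and 72 h, against 163 and 36.9 FPKM at 24 and 36 h. It was lower in each successive library of the whole series, from 11145 FPKM at 2 h through 3628 FPKM at 12 h, so the difference between the days of -2.73 ± 0.45 (limma adjusted p = 0.030) was the end of a longer decline. CPIJ002316 stood at 33.6, 24.1 and 16.2 FPKM at 48, 60 and 72 h, against 165 and 68.8 FPKM at 24 and 36 h. The 2 h and 12 h libraries gave 4.24 and 19.5 FPKM, so its highest value was at 24 h, and the days differed by -2.13 ± 0.35 (limma adjusted p = 0.030).

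All 4 genes lost their call after rescaling, where the differences were 2.73, 2.42, -2.85 and -2.25 in the order given (limma adjusted p = 0.12 for each). They also lost it when the 60 h library was left out (2.48, 2.17, -2.70 and -2.14) and when that at 72 h was (3.03, 2.91, -2.60 and -1.87). Without the 24 h library the differences were 2.00, 2.03, -1.68 and -1.50, and without the 36 h library 3.71, 3.00, -3.79 and -2.76, with the call kept in both.

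**Figure D3:**
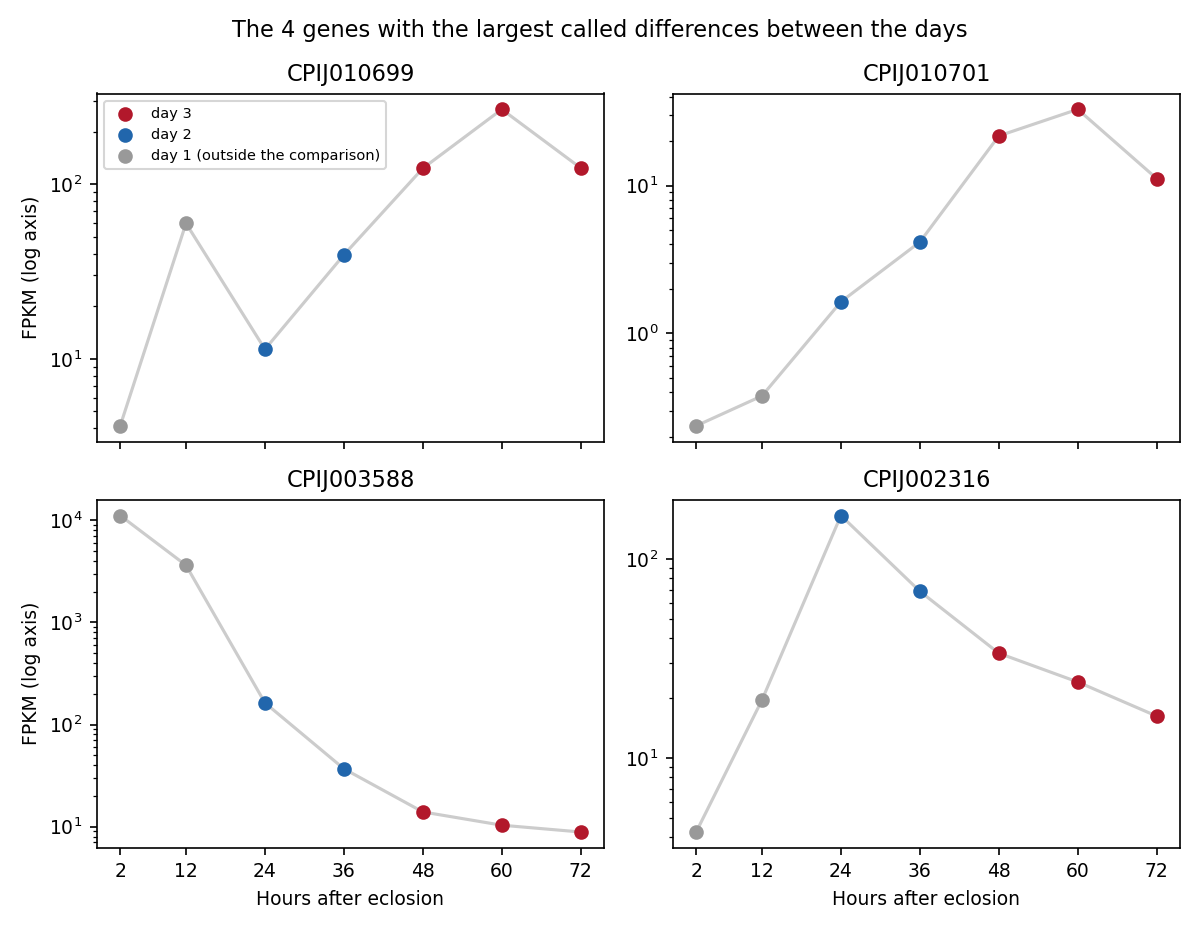
FPKM (vertical log axis) by hours after eclosion for the 2 called genes with the largest increases (top) and the 2 with the largest decreases (bottom), 1 point per library, coloured by day 3, day 2 and day 1 outside the comparison. CPIJ010699 and CPIJ010701 are highest at 60 h, CPIJ003588 is lower at each time from 11145 FPKM at 2 h, and CPIJ002316 is highest at 24 h with 165 FPKM.

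The largest differences of all were not called, and in most of these genes the values within day 2 were far apart. With a mean of 10 FPKM or more required, 12 genes were at least 4-fold lower on day 3; 4 of these were called and 8 were not, and in 11 of the 12 the 24 h value was more than 2 times the 36 h value. The limma adjusted p over the 12 was between 0.030 and 0.16. Most of the 8 not called had an identifier close to that of another of them, which holds for the 2 genes given next. Reads shared between such genes were not assessed, so the 8 need not be separate cases. The next 2 genes, which had the largest negative differences between 36 and 24 h, were taken up here after their values had been seen. CPIJ003470 stood at 3.30, 3.60 and 5.20 FPKM at 48, 60 and 72 h, against 1149 and 15.1 FPKM at 24 and 36 h. Most of that difference lay between 24 and 36 h, where log2(FPKM + 1) differed by -6.16; for the days it was -4.78 ± 1.19 (limma adjusted p = 0.062). CPIJ003476 stood at 0.859, 0.614 and 0.346 FPKM on day 3, against 313 and 4.37 FPKM at 24 and 36 h, with -5.87 between 36 and 24 h and -4.69 ± 1.13 between the days (limma adjusted p = 0.060). Both had been higher still at 12 h, at 5648 and 1306 FPKM.

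The interval that held the largest part of each difference was then counted. Among the 119 called increases the largest of the 4 steps was that from 36 to 48 h in 93 genes (78.2%) and that from 24 to 36 h in 23. The median log2 changes up to 36, 48, 60 and 72 h, each from the library before, were 0.36, 0.74, 0.088 and 0.20. The test itself favours genes with little change inside a day, so the placing of the called genes is partly set by it. Among the 93 genes at least 2-fold higher, chosen without regard to spread, the largest step was from 36 to 48 h in 50 (53.8%) and from 24 to 36 h in 33 (35.5%). Among the 138 genes at least 2-fold lower it was from 24 to 36 h in 81 (58.7%) and from 36 to 48 h in 43 (31.2%). After rescaling, 24 of the 57 higher genes had their largest step from 36 to 48 h. Only 10 of the 93 and 14 of the 138 had it after 48 h. A difference of day means holds the step from 36 to 48 h in full and the other steps in part. The step from 60 to 72 h has the least weight, so the choice of the 2-fold genes partly sets these counts too.

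The libraries at 2 and 12 h, which the comparison did not use, placed these sets in the longer course. The 119 called increases had a median of 13.8, 13.6 and 16.9 FPKM at 48, 60 and 72 h, against 5.24 and 7.14 FPKM at 24 and 36 h, with 1.22 FPKM in the 2 h and 1.95 FPKM in the 12 h library before that. In 113 of the 119 the 12 h value was below both day-2 values, against 7414 of all 11814 genes tested, and 109 were lowest at 2 h, against 7600 of all genes. The highest of the 7 values was at 72 h in 91 of them, at 60 h in 21 and at 48 h in 6, against 4754, 1436 and 1754 of all genes, and the choice of genes higher on day 3 favours these hours. These are values as deposited. After rescaling the median of the 119 was 13.2, 14.2 and 15.3 FPKM at 48, 60 and 72 h, against 5.41 and 7.61 FPKM at 24 and 36 h. It was 2.18 FPKM at 2 h and 2.59 FPKM at 12 h. Neither the hour of the highest value nor that of the lowest was counted on this scale.

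As deposited, most of the called decreases were genes at their highest at 24 h. Their median was 13.5, 10.4 and 10.9 FPKM at 48, 60 and 72 h, against 44.8 and 23.2 FPKM at 24 and 36 h, with 4.09 FPKM in the 2 h and 32.0 FPKM in the 12 h library before that. Of the 58 genes, 41 had their highest value at 24 h, against 1100 of all 11814, and the choice of genes higher on day 2 favours this hour. Their lowest value was at 2 h in 37, against 7600 of all genes, a share near that of all genes, and 49 had a higher value at 12 h than at 2 h, against 8980. The 2 h value was above all 3 day-3 values in 18, against 1834 of all genes. The 12 h value was above both day-2 values in 13 of them (27 after rescaling), against 2173 of all genes as deposited. The count over all genes after rescaling was not taken, so the 27 cannot be read as particular to these genes. The median ratio was 0.561 at 2 h and 0.753 at 12 h, so rescaling raised these libraries most. After rescaling the median of the 58 was 42.5 FPKM at 12 h and 46.3 FPKM at 24 h. The hour of the highest value was not counted after rescaling. The 138 genes at least 2-fold lower, of which 56 were called, included many that were highest on day 1: 33 were highest at 2 h, 31 at 12 h and 58 at 24 h, against 1264, 915 and 1100 of all genes. Together these 138 made up 2.01%, 1.68% and 1.36% of all FPKM at 48, 60 and 72 h, against 6.26% and 3.21% at 24 and 36 h, after 18.4% at 2 h and 16.2% at 12 h. The share is a sum that abundant genes dominate, and the choice of genes favours its fall from day 2 to day 3. The median of the 138 was 10.8 FPKM at 2 h, 44.1 FPKM at 12 h and 37.1 FPKM at 24 h. Of the 138, 50 were lowest at 2 h, against 7600 of all genes.

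**Figure D4:**
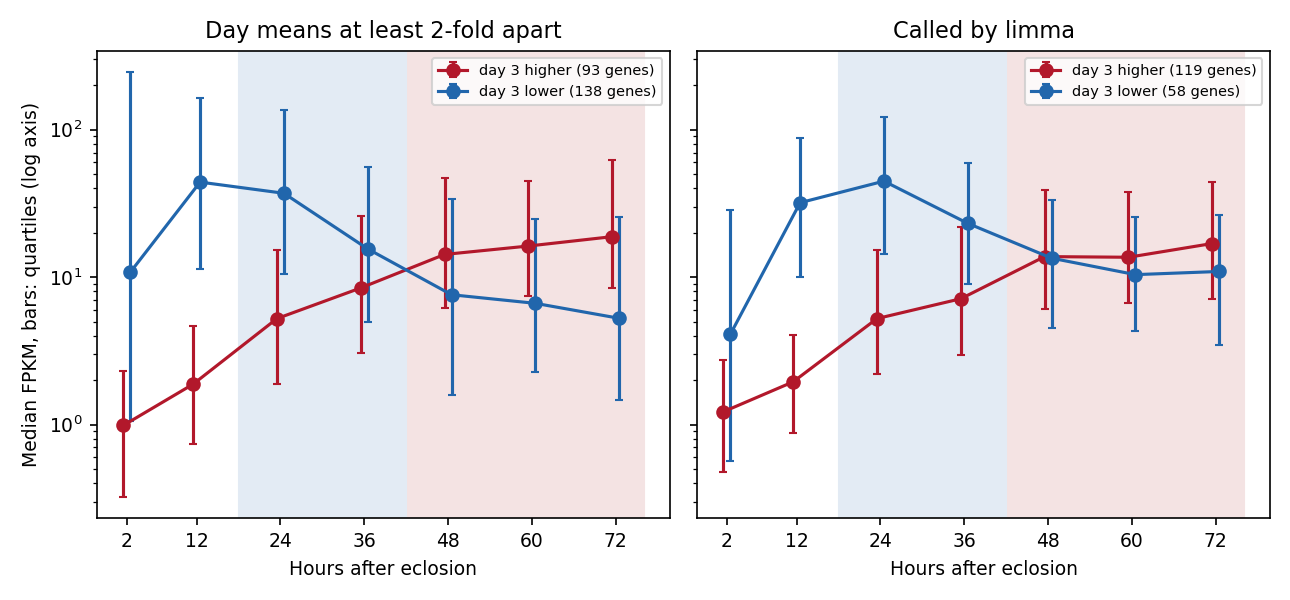
Median FPKM (vertical log axis, bars are the quartiles over genes) by hours after eclosion, for genes with day means at least 2-fold apart (left) and genes called by limma (right); red shading marks day 3 and blue shading day 2. The called increases stand at 13.6 to 16.9 FPKM on day 3 against 5.24 and 7.14 FPKM on day 2, and the called decreases are highest at 24 h with 44.8 FPKM.

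The direction of the differences varied with abundance. Among the 93 genes averaging 1000 FPKM or more, 68 (73.1%) were higher in every day-3 library than in either day-2 one, and 10 were lower, with a median difference of 0.49 as deposited and 0.37 after rescaling. Among the 502 genes with 100 to 1000 FPKM, 104 (20.7%) were higher without overlap and 156 (31.1%) lower, with a median difference of -0.066 (-0.19 after rescaling). In the 2 lower classes, with means from 10 to 100 and from 1 to 10 FPKM, 35.2% and 37.3% were higher without overlap and 7.80% and 5.85% lower. The 93 abundant genes held 39.2%, 42.4% and 40.5% of all FPKM at 48, 60 and 72 h, against 34.9% and 36.5% at 24 and 36 h, and the 502 genes held 27.1%, 26.7% and 26.0%, against 33.0% and 30.2%. Of these 93, 2 were called, both of them increases. The classes were compared with no test. They were cut on the mean over the same 5 libraries, so genes high on day 3 are favoured in the upper classes.

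Inside day 2, 157 genes had a 36 h value at least 2-fold above that at 24 h (1.33% of those tested) and 129 one at least 2-fold below it (1.09%), with no test since each hour has 1 library. After rescaling these were 201 (1.70%) and 117 (0.990%). All 3 day-3 values lay below the 24 h value in 123 of the 129 lower genes, against 2179 of all 11814, and above it in 137 of the 157 higher ones, against 6222 of all; the 24 h library chose the genes and enters both counts. In 125 of the 157 (79.6%) the 60 h value was above both the 48 h and the 72 h value, against 18.7% of all genes tested. Among the same genes these shares were 87.9% and 34.7% after rescaling. In 127 of the 157 (80.9%) the 12 h value was above that at 24 h, against 29.6% of all genes, though here too the 24 h library also chose the genes. This course was looked for after the values had been seen and was not tested. Values alternated over all 6 libraries from 12 to 72 h, high at 12, 36 and 60 h, in 87 of the 157 (55.4%) and in 610 of all genes (5.16%); the choice of the 157 fixes the step from 24 to 36 h and favours those on either side of it. The median of the 157 was 9.23, 11.2 and 6.74 FPKM at 48, 60 and 72 h, against 4.43 and 10.9 FPKM at 24 and 36 h.

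The 2 genes with the largest positive differences between 36 and 24 h showed this course. CPIJ005743 stood at 105, 165 and 45.1 FPKM at 48, 60 and 72 h, against 39.8 and 149 FPKM at 24 and 36 h, after 93.9 FPKM at 12 h. CPIJ008379 stood at 127, 174 and 75.2 FPKM at 48, 60 and 72 h, against 42.2 and 155 FPKM at 24 and 36 h, after 109 FPKM at 12 h. Both were lowest at 24 and 72 h among these 6 libraries. Their differences between 36 and 24 h were 1.88 and 1.85, whereas those between the days were 0.25 ± 0.53 and 0.54 ± 0.46 (limma adjusted p = 0.81 and 0.50). The libraries at 36 and 60 h were also the 2 shallowest of the 5, at 0.785 and 0.736 of the 24 h library, while that at 48 h was at 0.817. For pools of equal hour of emergence, 36 and 60 h also share a phase of the light-dark cycle that 24, 48 and 72 h do not. The part of depth or of phase in this course was not tested.

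**Figure D5:**
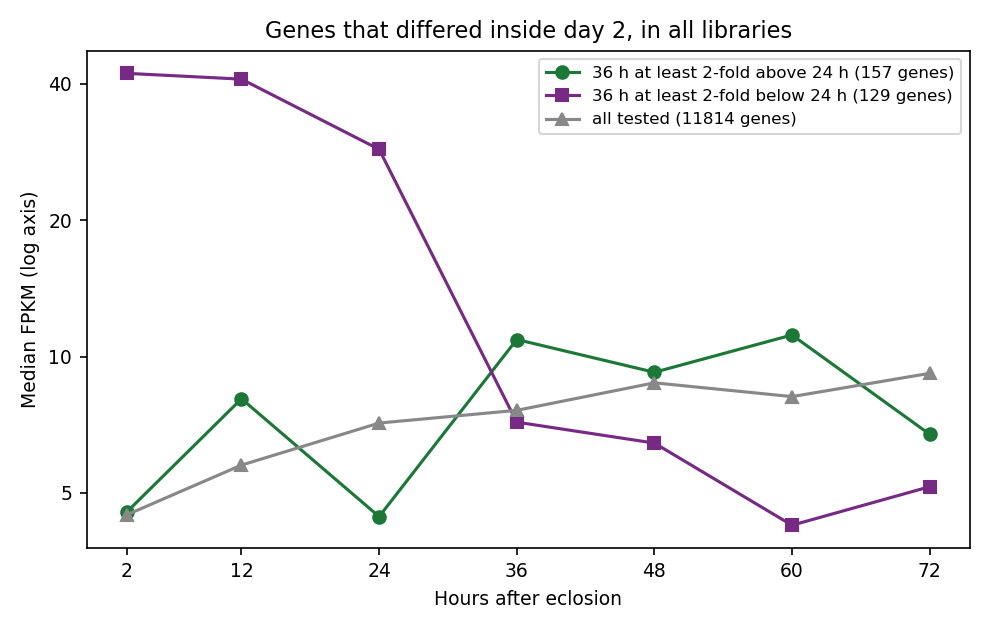
Median FPKM (vertical log axis) by hours after eclosion of the 157 genes with a 36 h value at least 2-fold above that at 24 h, the 129 with one at least 2-fold below it and all 11814 genes tested. The first set stands at 9.23, 11.2 and 6.74 FPKM at 48, 60 and 72 h against 4.43 and 10.9 FPKM at 24 and 36 h, high at 36 and 60 h, and the lower set stands at 7.16 FPKM at 36 h, against 28.7 FPKM at 24 h.

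Between 48 and 72 h fewer genes were that far apart than between 24 and 36 h. The 72 h value was at least 2-fold above that at 48 h in 51 (0.432%) and at least 2-fold below it in 68 (0.576%). After rescaling these were 35 (0.296%) and 89 (0.753%). The libraries at 48 and 72 h lie 24 h apart, and pairs 12 h apart inside day 3 were not counted. For pools of equal hour of emergence, 48 and 72 h share a phase of the light-dark cycle, and 24 and 36 h do not. Over all genes tested, the median absolute difference as deposited was 0.27 between 72 and 60 h and 0.18 between 60 and 48 h. It was 0.24 between 36 and 24 h. After rescaling these were 0.20, 0.17 and 0.24. The largest positive difference between 72 and 48 h came with a low value in 1 library. CPIJ011171 stood at 0.0738, 17.6 and 5.13 FPKM at 48, 60 and 72 h, with 14.4 and 19.0 FPKM at 24 and 36 h, so that its 48 h value lay below those of the other 4 libraries. Its log2 difference between 72 and 48 h was 2.51, or 4.91 with a pseudocount of 0.1. CPIJ002821 was higher at each hour of day 3, with 8.15, 22.2 and 32.5 FPKM at 48, 60 and 72 h, against 6.34 and 7.61 FPKM at 24 and 36 h. The difference between 72 and 48 h was 1.87, while that between the days was 1.27 ± 0.41 (limma adjusted p = 0.10). The 2 largest negative differences were in genes with a high value at 48 h. CPIJ015028 stood at 169, 30.1 and 22.6 FPKM at 48, 60 and 72 h, against 132 and 91.5 FPKM at 24 and 36 h. CPIJ001507 stood at 73.5, 22.9 and 10.4 FPKM at 48, 60 and 72 h, against 86.8 and 55.3 FPKM at 24 and 36 h. In both the 48 h value lay above the 36 h value, and the days differed by -1.15 ± 0.62 and -1.36 ± 0.56 (limma adjusted p = 0.27 and 0.16), smaller in size than the differences between 72 and 48 h of -2.85 and -2.70.

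At least 4-fold departures of 1 library from the other 4, in FPKM with no pseudocount, were rare among the 5134 genes averaging 10 FPKM or more. The 24 h library was above all others by that margin in 10 genes, and the 48 h library was below all others in 2, CPIJ011171 and CPIJ015506, of which the second is listed at 0 at 48 h and is not counted on the log2(FPKM + 1) scale. Both were named here after their values had been seen, and CPIJ011171 also had the largest positive difference between 72 and 48 h. The libraries at 36, 60 and 72 h had 0 such genes in either direction. Of the 11814 genes tested, 14 were listed at 0 in at least 1 of the 5 libraries, and a listed 0 can be a failed estimate.

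A step between the days and an even course over time were also set against each other. With a straight line on time over the 5 libraries in place of the day, limma called 892 genes, 683 with a rising slope (5.78%) and 209 with a falling one (1.77%), and 160 of the 177 genes called for the day were among them with the same direction. After rescaling the line called 89 genes, 34 rising (0.288%) and 55 falling (0.466%). With the day and the line in 1 fit, 0 genes were called for the day (209 at an unadjusted limma p under 0.05, of which 125 were higher and 84 lower), a fit that leaves 2 residual degrees of freedom. With a term for the phase (24, 48 and 72 h against 36 and 60 h) beside the day, limma called 1761 genes for the day, 1257 higher (10.6%) and 504 lower (4.27%), and 542 after rescaling, 274 higher (2.32%) and 268 lower (2.27%); all 177 were among the 1761. The phase term itself was called in 82 genes, 61 higher (0.516%) and 21 lower (0.178%) at 36 and 60 h, and in 0 after rescaling (1706 at an unadjusted limma p under 0.05). A step between the days cannot be told apart from steady change over these 48 h with 5 libraries.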

How the data were processed

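The authors deposited 1 value per gene and library, read here as FPKM. The series' design text names TopHat, Cufflinks and Cuffdiff, which report FPKM, and the values are fractional with unequal sums. CASAVA 1.8 and Trimmomatic are listed in the submitters' processing notes. For genome build, annotation, strand and normalization between libraries, the sources used here give nothing.

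Genes averaging 1 FPKM or more over the 5 libraries were tested on log2(FPKM + 1), which understates the change of low genes, with limma 3.58.1 in R 4.3.3 (group term, 3 residual degrees of freedom, mean-dependent prior, Benjamini-Hochberg adjustment over all 11814 genes, threshold 0.05). All hours come from separate pools, and p-values measure only the spread between these libraries. Rescaling divided each library by its median ratio over the 4100 genes that reached 10 FPKM in all 5. Relative depth was taken from the commonest ratio of values below 0.3 FPKM. Between 11.7% (60 h) and 18.5% (48 h) of the genes used lay within 0.02 log2 of that ratio. Python 3.11.15 did the rest, and the fit was checked on simulated data. These held independent noise per gene, with no shift of whole libraries and no course over time, so the check does not cover either. Genes given by identifier are the 2 largest differences per direction and comparison among genes averaging 10 FPKM or more (for the days, called and not overlapping). CPIJ015506, given beside them, was named after its values had been seen. Groups, lists and tests were chosen with earlier results of these data known. Alternatives were a pseudocount of 0.1, rescaling, other minimum values, 1 prior variance, other model terms and each library left out. Gene lists could not be built without names.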

Additional observations from a re-analysis of the deposited data

How the results depend on the processing

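The count of 177 called genes was 175 with a pseudocount of 0.1 and 182 with 1 prior variance. It was 0 after rescaling, 0 with no minimum value (18076 genes tested, 3240 at an unadjusted limma p under 0.05), 86 with a minimum mean of 10 FPKM (5134 tested), 1761 with a phase term, 892 with a straight line on time, 0 with the day and a line, and, chosen after seeing the data, 542 and 89 with a phase term or a line after rescaling. Leaving out 1 library gave 0 without 72 h, 2 without 60 h, 29 without 24 h, 397 without 48 h and 1625 without 36 h. The 231 genes at least 2-fold apart were 466 with a pseudocount of 0.1, 135 with a minimum of 10 FPKM and 113 to 688 with 1 library left out. The 5172 genes that did not overlap were 2288 with that minimum and 6124 to 8401 with 1 library left out, where fewer libraries have to be in order. The median difference of 0.17 was 0.067 after rescaling, 0.075 with no minimum and 0.14 to 0.21 with 1 library left out. The sum of FPKM differed by -3628 after rescaling (exact permutation p = 1.0), against 34432. With a pseudocount of 0.1 and with a minimum of 10 FPKM, the 286 genes changed from 24 to 36 h were 584 and 138, and the 119 changed from 48 to 72 h were 273 and 52. The 2-fold higher genes with their largest step from 36 to 48 h were 50 of 93. They were 147 of 271 with the pseudocount, 24 of 57 after rescaling and 24 of 54 with the minimum. The lower ones were 43 of 138, against 66 of 195 with the pseudocount, 58 of 173 after rescaling and 19 of 81 with the minimum. The totals change with the setting, so these counts are to be read against them. The called decreases above both day-2 values at 12 h were 27 after rescaling, against 13, with no rescaled count over all genes beside them. The counts of genes 2-fold apart or without overlap are lower with the minimum of 10 FPKM because fewer genes enter; the other causes were not tested. Of the 15 alternatives for each gene called between the days, CPIJ010699 lost its call in 6, CPIJ010701 in 7, CPIJ003588 in 5 and CPIJ002316 in 5, and none changed sign; over the 4 genes the limma adjusted p of these alternatives ran between 1.02e-08 and 1.00. Depth limits low values most at 60 h. No paired analysis was possible because the labels carry no replicate numbers.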

Other observations

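Some of the genes that differed between the days had close identifiers, counted here with no test. Of the 138 genes at least 2-fold lower on day 3, 46 (33.3%) had another gene of that set within 2 identifier numbers, in 20 runs of which the longest held 4 genes. Of the 93 genes at least 2-fold higher, 13 (14.0%) had such a neighbour, in 6 runs of up to 3 genes. Among the called genes, 13 of the 58 decreases (22.4%) and 15 of the 119 increases (12.6%) had one. The share over all genes tested, or in other sets of these sizes, was not counted. These shares therefore cannot be read as a grouping of the genes that differed. Whether close identifiers mark neighbouring or similar genes is not given in the files used here.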
